A study of Mus musculus with 12 samples.

Results

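The 9 genes described here control the direction of carbon flow between glucose and pyruvate in the liver. They were picked by symbol, and all 9 were found among the 16821 genes listed: the gluconeogenic enzymes Pcx, Pck1, Fbp1 and G6pc (also called G6pc1), the glucose 6-phosphate carrier Slc37a4, the glucose transporter Slc2a2, the glycolytic enzymes Pfkl and Pklr, and the bifunctional regulator Pfkfb1. All 9 passed the filter on low values. RNA was sequenced from the livers of 12 adult male C57BL/6J mice, bought at 8 weeks of age, for which no engineered allele or drug is named. The 6 Con mice stayed sedentary, whereas the 6 Exe mice underwent chronic exercise, moderate treadmill running over 6 weeks. Tissue was collected within a day after the final session following a saline flush, so the last bout and the weeks of training cannot be told apart. All mice had free access to food, the labels give no batch, and whether food was withdrawn before collection is not stated in the sources used here.

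In hepatocytes, pyruvate carboxylase (Pcx) and cytosolic phosphoenolpyruvate carboxykinase (Pck1) open the gluconeogenic route, fructose bisphosphatase (Fbp1) runs its middle step, and glucose-6-phosphatase (G6pc) releases free glucose inside the endoplasmic reticulum. Phosphofructokinase (Pfkl) and liver pyruvate kinase (Pklr) drive the opposite, glycolytic steps. Glucagon and fasting raise transcription of Pck1 and G6pc through cAMP and insulin lowers it, while glucose raises transcription of Pklr. The Pfkfb1 protein makes and removes the fructose bisphosphate signal that switches phosphofructokinase on and fructose bisphosphatase off.

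Values are FPKM (fragments mapped to a gene, scaled to its length and to the library's total), and differences are log2(FPKM + 1) in Exe minus Con, fitted with limma over 10241 genes that reached 1 FPKM in at least 6 mice. FPKM summed to between 735200 and 820107 per mouse. Depth itself is not in the files, but the spacing of low values put the relative depth of the mice between 0.991 and 1.02 of their mean. No gene passed a Benjamini-Hochberg adjusted p of 0.05 in limma (0 of 10241, 0.0%), with a lowest adjusted p of 0.519. The study itself reported differentially expressed genes with DESeq, a test of counts that cannot be run on these FPKM values. The 0 in limma therefore does not speak to its calls. At an unadjusted limma p under 0.05 there were 636 genes (6.21%), of which 437 were higher in Exe (4.27%) and 199 lower (1.94%). This split moved with the scaling, from 68.7% higher as deposited to 88.1% with FPKM rescaled to a common sum and 56.4% after quantile normalization. Without Exe 2 the count at that p was 418. The groups did not overlap for 26 genes (0.254%), 24 with every Exe mouse above every Con mouse (0.234%) and 2 below (0.0195%).

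The livers carried their own markers and little of other tissues in which these 9 genes are active. The 11 hepatocyte markers summed to between 75220 and 91210 FPKM in Con and between 82660 and 101200 in Exe. Of these markers 9 were higher in Exe and 2 lower (median log2 difference 0.05), where 57.5% of all genes were higher. At an unadjusted limma p under 0.05, 3 were higher and 0 lower, where 4.27% and 1.94% of all genes were. None passed the adjusted threshold, and the part of this in the values of the 9 genes was not tested. The 12 periportal markers summed to 5621 to 6544 and 5329 to 6898 FPKM, and the 12 pericentral markers to 6554 to 8063 and 6113 to 9160. The 6 kidney markers, among them Umod and Slc34a1, summed to at most 0.19 FPKM in any mouse, the 2 islet markers to at most 0.17 and the 7 skeletal muscle markers to at most 1.88. The 5 adipose markers summed to at most 7.63 FPKM, of which up to 7.26 was Adrb3, while Adipoq reached no more than 0.06. The 6 intestine markers summed to between 31.4 and 61.9 FPKM, and Fabp2 alone reached 61.6. In bulk liver, fewer cells of a type and less RNA per cell cannot be told apart.

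The promoter windows of 4 genes are shown because these genes differ most from mouse to mouse or move together below. Each is the 250 bases before a RefSeq transcription start on GRCm38.p6, 5′ to 3′ on the gene's strand, with motif matches in capitals. Pck1 lies at chr2:173152823-173153072, G6pc at chr11:101367466-101367715, Pklr (the more 3′ of 2 windows) at chr3:89136373-89136622 and Slc2a2 at chr3:28697653-28697902, all on the plus strand.
Pck1: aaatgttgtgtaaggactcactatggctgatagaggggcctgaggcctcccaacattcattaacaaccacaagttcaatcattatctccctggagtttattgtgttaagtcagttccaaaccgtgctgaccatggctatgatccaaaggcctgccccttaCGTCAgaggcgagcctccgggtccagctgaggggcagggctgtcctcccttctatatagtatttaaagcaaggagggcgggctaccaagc
G6pc: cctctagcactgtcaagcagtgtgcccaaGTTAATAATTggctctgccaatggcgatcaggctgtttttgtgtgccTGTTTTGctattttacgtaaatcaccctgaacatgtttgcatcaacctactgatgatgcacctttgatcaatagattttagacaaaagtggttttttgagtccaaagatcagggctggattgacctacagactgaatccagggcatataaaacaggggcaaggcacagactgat
Pklr: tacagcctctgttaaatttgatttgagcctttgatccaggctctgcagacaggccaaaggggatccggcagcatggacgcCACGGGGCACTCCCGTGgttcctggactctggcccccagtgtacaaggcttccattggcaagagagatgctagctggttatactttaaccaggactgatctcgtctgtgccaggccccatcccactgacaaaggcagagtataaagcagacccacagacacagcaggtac
Slc2a2: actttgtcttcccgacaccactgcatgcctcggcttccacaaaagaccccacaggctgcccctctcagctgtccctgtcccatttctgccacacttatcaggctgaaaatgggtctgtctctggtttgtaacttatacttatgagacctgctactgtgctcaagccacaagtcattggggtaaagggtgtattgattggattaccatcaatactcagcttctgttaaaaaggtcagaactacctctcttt

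In the Pck1 window, the capitals mark the cAMP response core TGACG, read on the minus strand from 90 to 86 bases upstream, a match that 17.8% of 32851 windows held. The G6pc window held the HNF1 motif from 221 to 212 bases upstream (0.371% of windows) and the FOXO core CAAAACA on the minus strand from 174 to 168 (5.56%). In the Pklr window, a carbohydrate response element (a pair of E-box-like sites 5 bases apart) lay from 170 to 154 bases upstream, as in 0.454% of windows. The Slc2a2 window held none of the 6 motifs searched on both strands, nor did any of the 4 windows of Pfkfb1. The other motifs searched were the full cAMP response element TGACGTCA (1.55% of windows), which contains TGACG, and the E-box CACGTG (6.02%). Among the 16 windows of the 9 genes, 6 held a match, of which 2 are overlapping Slc37a4 windows that share a TGACG site. The share of all windows with any of the 6 motifs was not computed, so this count has no background beside it. Such matches describe letters in these windows, not bound sites.

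Ordered by FPKM, which is scaled to gene length, Pck1 was the most abundant of the 9 in all 12 mice and Fbp1 came next. Their ranges overlapped, with Pck1 from 538 to 1448 and Fbp1 from 527 to 706. G6pc, Pcx, Slc37a4, Slc2a2 and Pklr followed with overlapping ranges, all below the lowest Fbp1 value. Pfkfb1, between 9.57 and 24.0 FPKM, and Pfkl, between 7.62 and 10.3, were lowest and overlapped. G6pc in Exe 5, at 16.2, was the only value of those 5 genes within the Pfkfb1 range.

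Pfkfb1 (gene 18639) stood apart from the other 8 in separating the groups. In Con it ran from 9.57 (Con 4) through a median of 11.97 to 14.5 FPKM (Con 3), and in Exe from 16.0 (Exe 4) through 17.9 to 24.0 (Exe 6). Every Exe mouse was above every Con mouse. The means were 12.1 ± 2.07 FPKM in Con and 18.9 ± 3.20 in Exe (SD, n = 6 each), a ratio of 1.56. The log2 difference was 0.60 with a 95% interval of 0.35 to 0.86 (SE 0.12). It had the second smallest p of all genes in limma, 0.000189, but its adjusted p was 0.519. The exact permutation p for Pfkfb1 was 0.00216, the smallest that 924 splits of 6 against 6 can give. Over 22 other settings, which included leaving out each mouse, its log2 difference stayed between 0.53 and 0.65 and its limma adjusted p between 0.24 and 0.999. A log2 difference at least as large in size was found for 52 genes (0.508%).

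**Figure D1:**
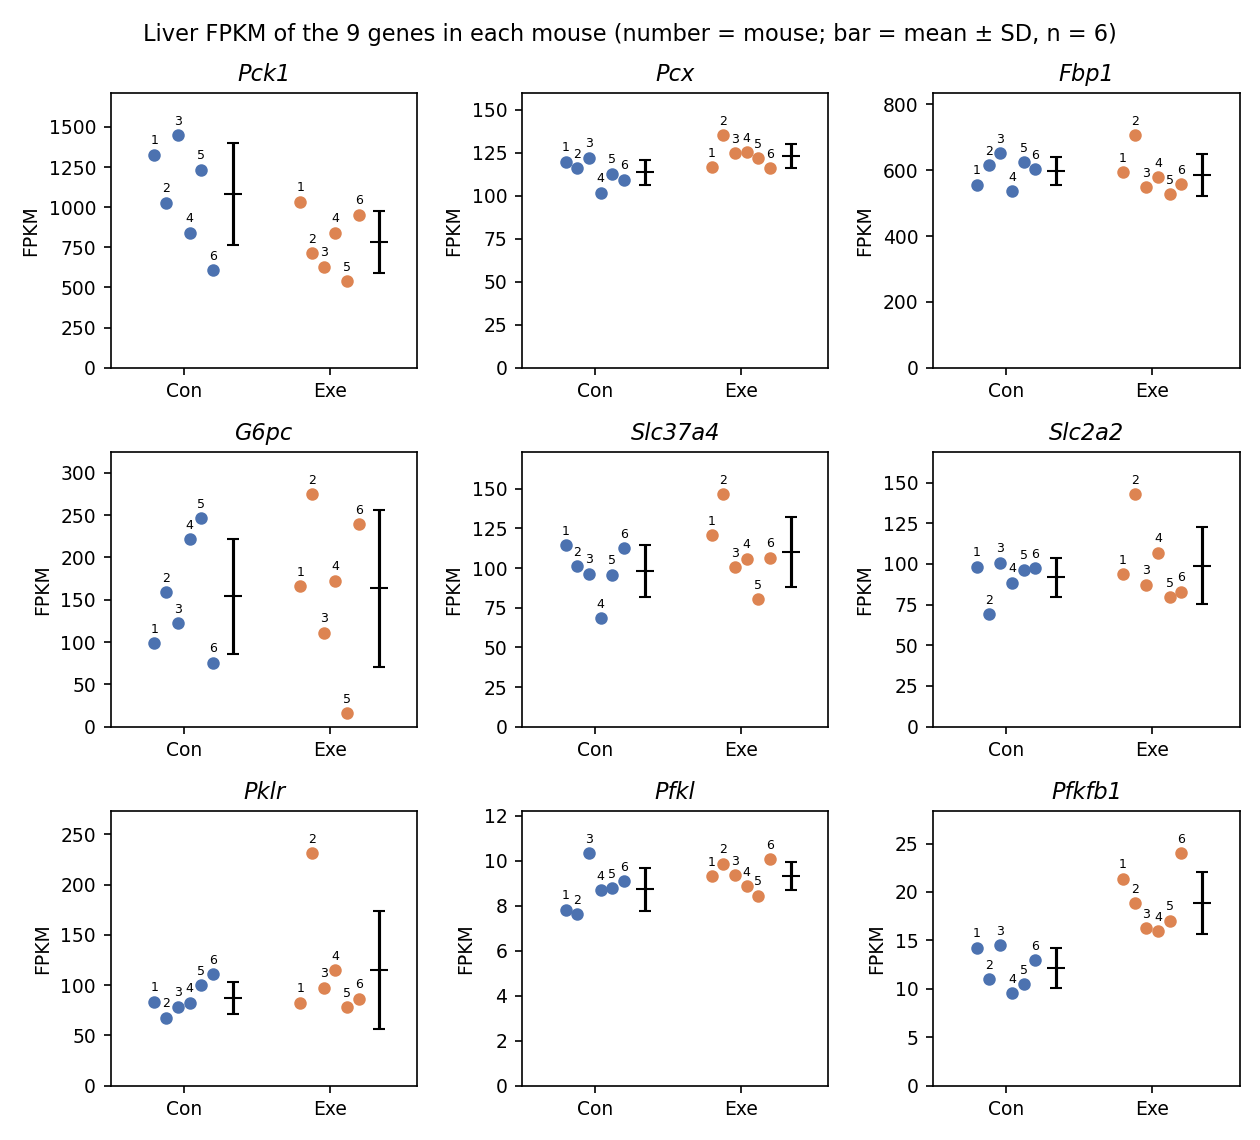
FPKM of each of the 9 genes (vertical axes, from 0) in the 6 Con and 6 Exe mice, with each mouse a numbered point and each bar the group mean ± SD. Only for Pfkfb1 do the groups not overlap (9.57 to 14.5 against 16.0 to 24.0 FPKM), and single mice stand away for G6pc (Exe 5, 16.2) and Pklr (Exe 2, 231.2).

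Of the gluconeogenic enzymes, Pck1 (gene 18534) had the largest difference on average, lower in Exe, within an interval that reached just past 0. It ran from 606 (Con 6) through a median of 1131 to 1448 FPKM (Con 3) in Con, and from 538 (Exe 5) through 777 to 1034 (Exe 1) in Exe. The groups overlapped, since only Exe 5 lay below every Con mouse while Con 1, Con 3 and Con 5 lay above every Exe mouse. Means were 1080 ± 317 FPKM and 784.5 ± 192 (SD, n = 6 each), a ratio of 0.726. The log2 difference was -0.44 with a 95% interval of -0.90 to 0.02 (limma p = 0.0589, adjusted p = 0.809, exact permutation p = 0.104). Over 22 other settings the log2 difference ran from -0.59, without Con 6, to -0.29. The latter was without Exe 2 and Exe 5 together, a choice made after seeing the data. In these settings the unadjusted limma p ran from 0.00627 to 0.237 and the adjusted p was at least 0.655.

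Pcx (gene 18563), the mitochondrial entry enzyme, was slightly higher in Exe and varied little. Con mice ran from 102 (Con 4) through a median of 114 to 122 FPKM (Con 3), and Exe mice from 116 (Exe 6) through 123 to 135 (Exe 2). Exe 2, Exe 3 and Exe 4 were above every Con mouse, and the other 3 lay within the Con range. Means were 114 ± 7.37 and 123 ± 7.02 FPKM (SD, n = 6 each). The log2 difference was 0.12 with a 95% interval of -0.01 to 0.24, limma p was 0.0594 and adjusted p 0.811. The exact permutation test gave p = 0.0411 before any adjustment.

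Fbp1 (gene 14121) was nearly level between the groups. It ran from 535 (Con 4) through a median of 609 to 651 FPKM (Con 3) in Con, and from 527 (Exe 5) through 567 to 706 (Exe 2) in Exe. Exe 2 lay above and Exe 5 below the whole Con range. The fold in Exe over Con had a 95% interval of 0.872 to 1.09 (limma adjusted p = 0.966). Its log2 difference was -0.03 as deposited and 0.004 with FPKM rescaled to a common sum.

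G6pc (gene 14377) varied more from mouse to mouse than any other member. Con mice ran from 75.8 (Con 6) through a median of 141 to 246 FPKM (Con 5). Exe mice ran from 16.2 (Exe 5) through 169.5 to 275 (Exe 2). The groups overlapped almost wholly, with Exe 5 alone below and Exe 2 alone above the Con range. The ratio of the means, 154 ± 68.2 and 163 ± 92.4 FPKM (SD, n = 6 each), was 1.06, while the log2 difference was -0.19 with a 95% interval of -1.41 to 1.02 (limma adjusted p = 0.975). Without Exe 5 the log2 difference was 0.38, so its sign rested on that mouse.

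The carrier that brings glucose 6-phosphate to G6pc, Slc37a4 (gene 14385), ran from 68.4 (Con 4) through a median of 98.7 to 114 FPKM (Con 1) in Con and from 80.3 (Exe 5) through 106 to 146 (Exe 2) in Exe. The fold in Exe over Con was bounded by 0.905 and 1.38 (limma adjusted p = 0.931). Slc2a2 (gene 20526), which encodes the glucose transporter GLUT2, ran from 68.9 (Con 2) through 97.0 to 101 FPKM (Con 3) in Con and from 79.7 (Exe 5) through 90.4 to 143 (Exe 2) in Exe. Both transporters overlapped between groups, and Exe 2 held the highest value of each. The Slc2a2 log2 difference was 0.09 (95% interval -0.20 to 0.38, limma adjusted p = 0.957) and -0.02 without Exe 2.

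On the glycolytic side, Pklr (gene 18770) ran from 67.7 (Con 2) through a median of 83.0 to 111 FPKM (Con 6) in Con and from 77.9 (Exe 5) through 91.9 to 231.2 (Exe 2) in Exe. Exe 2 held 231.2 FPKM while the other 5 Exe mice lay between 77.9 and 115. The log2 difference was 0.30 with a 95% interval of -0.18 to 0.79 (limma adjusted p = 0.914), and 0.08 without Exe 2. Pfkl (gene 18641) ran from 7.62 (Con 2) through 8.75 to 10.3 FPKM (Con 3) in Con and from 8.44 (Exe 5) through 9.33 to 10.1 (Exe 6) in Exe, wholly inside the Con range. Its fold in Exe over Con was bounded by 0.959 and 1.181 (limma adjusted p = 0.922).

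Across the 9 genes, 6 were higher and 3 lower in Exe, with a median log2 difference of 0.09, against a median of 0.02 and 57.5% higher over all 10241 genes. At an unadjusted limma p under 0.05 there was 1 of the 9, Pfkfb1, where all genes gave 6.21%, and 1 of the 9 had groups that did not overlap, where all genes gave 0.254%. The count of 1 became 2 without Con 1, Con 3, Con 4 or Con 6 and 3 without Exe 1 or Exe 6.

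**Figure D2:**
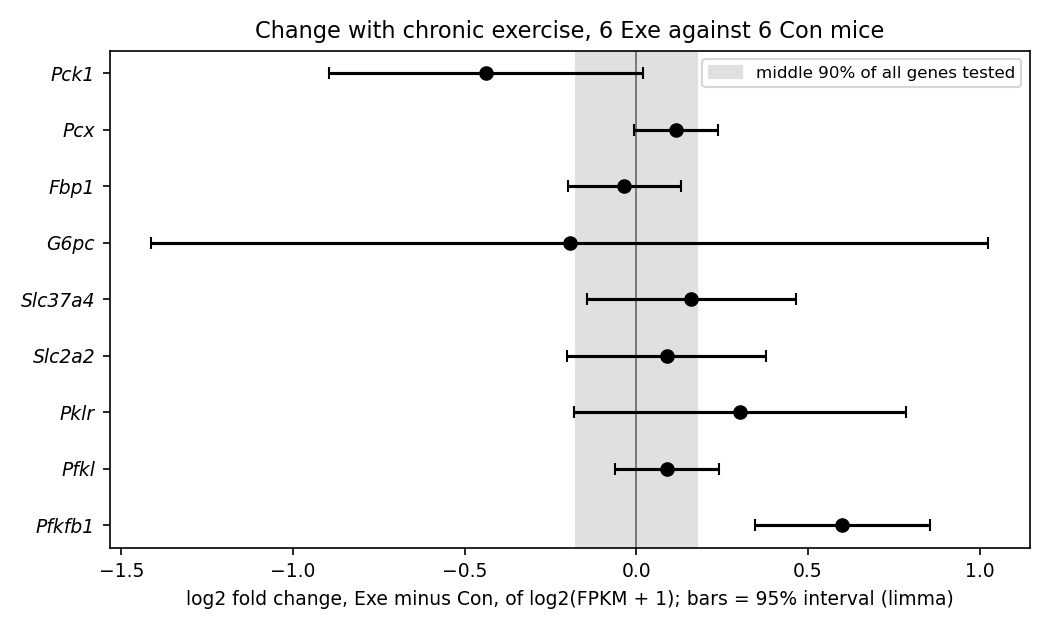
Difference in log2(FPKM + 1), Exe minus Con, for each of the 9 genes (points) with its 95% interval from limma (bars), over a grey band that holds the middle 90% of the differences of all genes tested. The interval of Pfkfb1 (0.35 to 0.86) lies above 0, those of the other 8 include 0, and that of G6pc (-1.41 to 1.02) is the widest.

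The 9 genes differed in how much they varied within groups. The pooled SD of log2(FPKM + 1) was 1.14 for G6pc, at percentile 99.8 of all genes tested, 0.45 for Pklr (percentile 96.9) and 0.42 for Pck1 (percentile 96.4). Among the 500 genes nearest in mean level, these were percentiles 99.6, 96.8 and 94.4. Fbp1 (0.13), Pfkl (0.12) and Pcx (0.09) lay below the median of 0.14 over all genes. The G6pc value dropped to 0.59 without Exe 5 and the Pklr value to 0.24 without Exe 2. G6pc, Pklr and Pck1 had the widest spread within groups of the 9 when all 12 mice were used. Without Exe 2, Pklr (0.237) fell just below Pfkfb1 (0.24). Whether the spread is related to how these genes are regulated was not tested.

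Over the 12 mice, 30 of the 36 pairs of members had a positive Pearson's r, and the pairs share libraries and scaling. Pklr and Slc2a2 moved together most closely, with r = 0.87 (permutation p = 0.00058, adjusted over 36 pairs 0.0209) and Spearman's rho = 0.65 (permutation p = 0.0257, adjusted 0.553). Within Con r was 0.65 (exact permutation p = 0.199) and within Exe 0.96 (exact permutation p = 0.0125). Without Exe 2 and Exe 4, the mice farthest from the median of Pklr, r was 0.58 (permutation p = 0.0784), so the call rests on those mice, and on others named next, while r stayed positive. Without Con 2, Exe 2, Exe 4 or Exe 5 alone, r was 0.87, 0.68, 0.87 and 0.87 and the adjusted permutation p 0.119, 0.712, 0.102 and 0.0594. Pck1 and G6pc, both cAMP responsive, gave r = 0.47 (permutation p = 0.121, adjusted 0.312) and rho = 0.25 (permutation p = 0.432, adjusted 0.648), and r = 0.10 without Exe 5. No other pair passed the adjusted threshold by either coefficient.

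**Figure D3:**
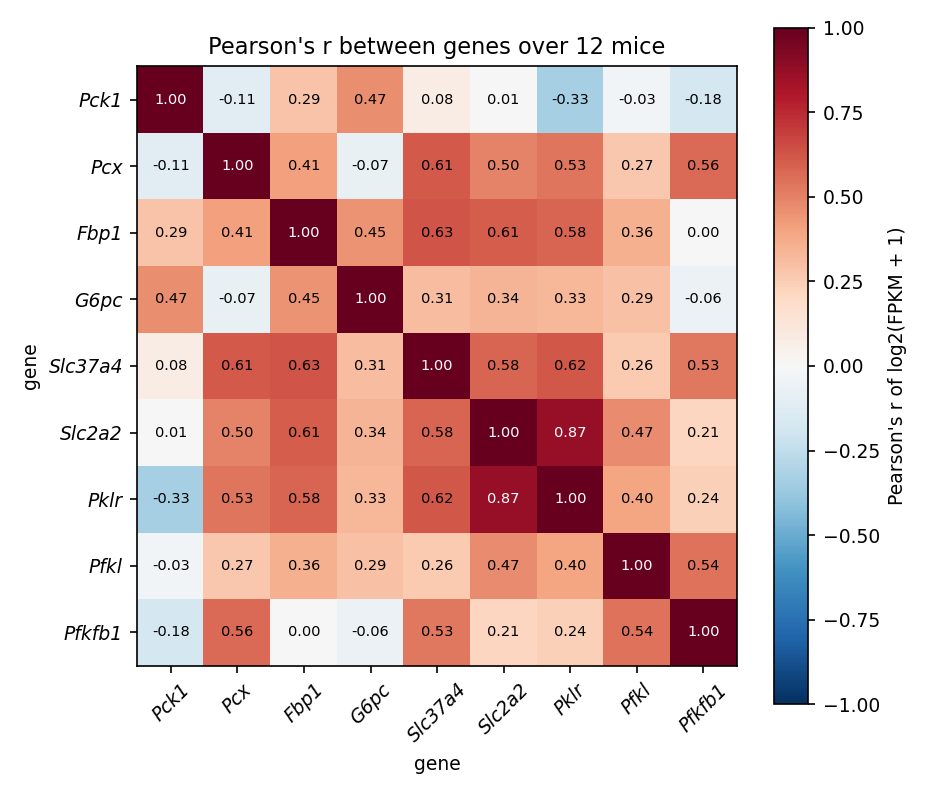
Pearson's r of log2(FPKM + 1) over the 12 mice for each pair of the 9 genes, coloured from negative to positive. Of the 36 pairs 30 are positive, and Pklr with Slc2a2 (0.87) is the closest.

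For each member the 3 genes with the closest pattern, after removing the group means, were read off over the 12 mice as a description. Pck1 was closest to Tat (r = 0.90 after centring), a tyrosine aminotransferase induced in fasting. Tat ran from 412 to 944 FPKM in Con and from 317 to 747 in Exe, and the mice with low Pck1 (Con 6, Exe 3 and Exe 5) were low in Tat. Pklr was closest to Khk (0.91), ketohexokinase, which opens fructose breakdown, and both were highest in Exe 2, where Khk reached 461 FPKM. G6pc was closest to Cyp4f15 (0.92), Dhrs4 (0.91) and Rbp4 (0.90). Pck1 was next closest to Klf3 (0.86) and Trp53inp1 (0.85), and Pklr to Cavin2 (0.89) and Rgs16 (0.89). Fbp1 was closest to Dpp4 (0.96), Vti1a (0.89) and Perp (0.86). Pcx was closest to Fam133b (0.90), Furin (0.84) and Mpzl2 (0.84). Pfkfb1 was closest to Metrn (0.91), Fam169b (0.91) and Mbnl2 (0.90) after centring, but with the group means kept in, r was 0.38 for Metrn, 0.81 for Fam169b and 0.41 for Mbnl2, since Metrn and Mbnl2 did not share its difference between groups. Pfkl was closest to Prok1 (0.96), Pdcd6 (0.93) and Aplp2 (0.92), Slc2a2 to Vamp4 (0.91), Tpm2 (0.90) and Shpk (0.90), and Slc37a4 to Ank (0.84), Ptpmt1 (0.83) and Tedc2 (0.82).

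Acute phase genes, which hepatocytes switch on in inflammation, also varied widely between mice, and G6pc moved against them. The 14 genes summed to between 9157 and 43090 FPKM in Con and between 9587 and 44460 in Exe. Their mean log2 level was highest in Con 1 and Exe 5 (both 9.98) and lowest in Con 4 (7.10). This comparison was chosen after the values were seen, over the 9 members. For G6pc r was -0.75 (permutation p = 0.00063, adjusted over the 9 relations 0.00567) and rho -0.77 (permutation p = 0.00519, adjusted 0.0467). Within Con r was -0.82 (exact permutation p = 0.0667) and within Exe -0.90 (exact permutation p = 0.0292). Without Con 1 and Exe 5 r was -0.73 (permutation p = 0.0172, adjusted 0.155), so the sign held and the adjusted call did not. Without Exe 5 alone r was -0.78 (adjusted permutation p = 0.0604). For the other 8 members the adjusted permutation p was at least 0.439, with r = -0.03 for Pck1. With the acute phase level as a covariate, the G6pc log2 difference between Exe and Con was -0.53 in limma, against -0.19 without it, and neither passed even an unadjusted p of 0.05.

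**Figure D4:**
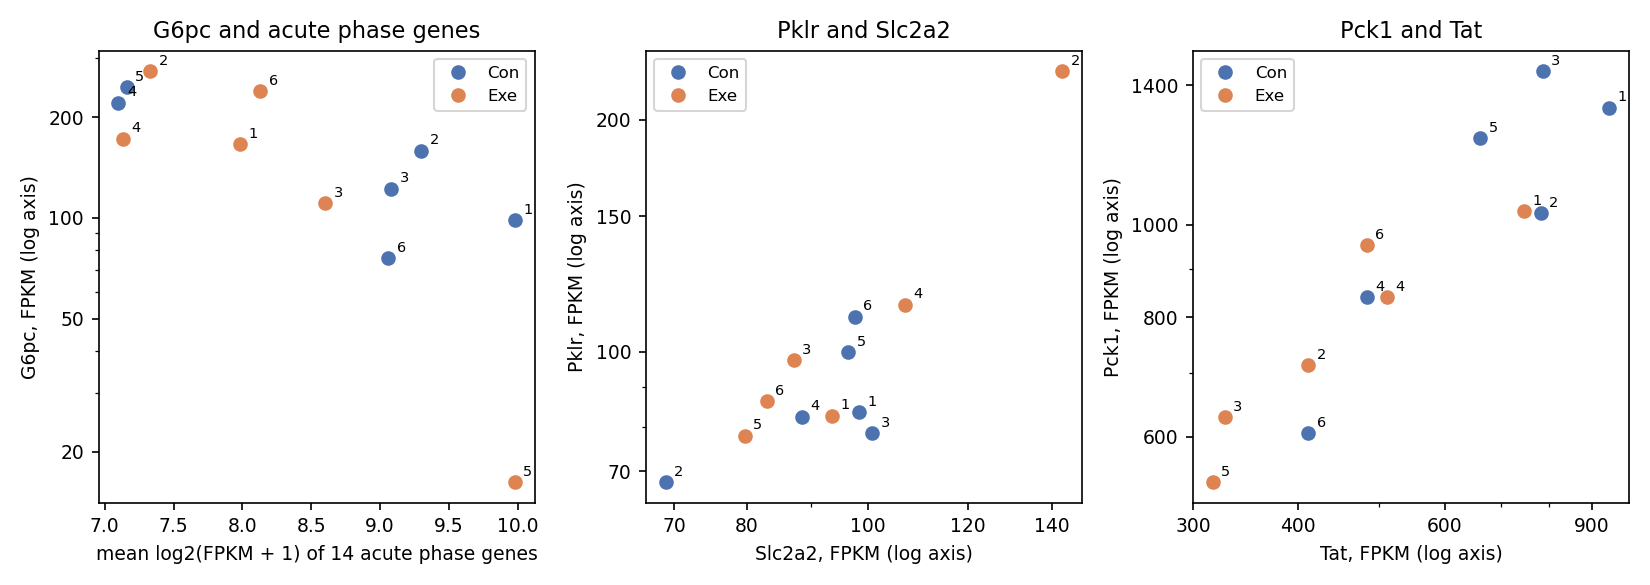
Each point is a mouse, coloured by group, for pairs of measures named in the text (FPKM on log axes, acute phase genes as mean log2 level). Pklr rises with Slc2a2 with Exe 2 at the upper end, and Pck1 rises with Tat, which was picked as its closest gene. G6pc is low where the acute phase level is high, with Exe 5 lowest at 16.2 FPKM.

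The liver forms were compared with related genes of the same families, which are also detected in these livers. Pck1 made up 99.7% to 99.9% of the summed FPKM of Pck1 and Pck2, and Fbp1 at least 99.9% of Fbp1 and Fbp2. Slc2a2 made up 91.5% to 97.6% of the facilitative transporters Slc2a1 to Slc2a4, and Slc37a4 88.3% to 94.8% of the Slc37a genes. Pklr made up 83.6% (Exe 5) to 96.3% of pyruvate kinase, the rest being Pkm. G6pc with G6pc3 was at 96.3% ± 2.20 in Con and 93.9% ± 8.34 in Exe (SD, n = 6 each), with a low of 76.9% in Exe 5.

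The phosphofructokinase and Pfkfb families were mixed, with liver form shares of 51.0% to 60.6% and 44.0% to 80.1% over the mice. Pfkl made up 53.9% ± 2.61 of phosphofructokinase FPKM in Con and 57.9% ± 2.27 in Exe (SD, n = 6 each), and most of the rest was the muscle form Pfkm. Pfkfb1 made up 53.5% ± 6.50 of the Pfkfb family in Con and 68.2% ± 6.43 in Exe. The other abundant members were lower in Exe on average without passing the test: Pfkfb3 at 5.67 ± 2.56 and 4.38 ± 1.66 FPKM (limma adjusted p = 0.933) and Pfkfb2 at 4.68 ± 0.98 and 4.02 ± 0.40 (adjusted p = 0.884).

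**Figure D5:**
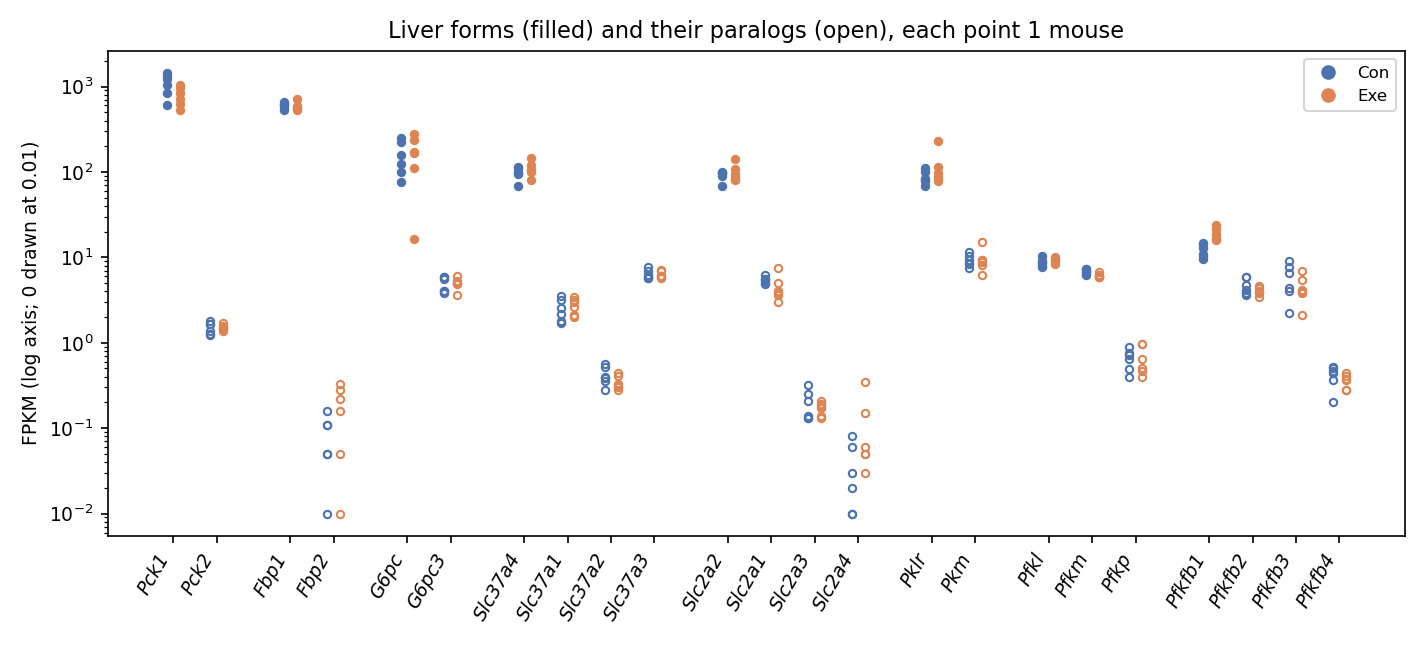
FPKM (vertical axis, log scale, with 0 drawn at 0.01) of the liver forms (filled) and their related genes (open) in each mouse, Con and Exe side by side. Pck1 and Fbp1 lie far above Pck2 and Fbp2, while Pfkl lies just above Pfkm and Pfkfb1 above Pfkfb2 and Pfkfb3.

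The rest of the pathway was read from lists set by function, but chosen with earlier results of these data known. Such lists can exceed the share over all genes through that choice, so the counts here and in the following paragraphs are descriptions, not tests. No gene in these lists passed the adjusted threshold in limma. The counts below are at an unadjusted p under 0.05, where 4.27% of all genes were higher and 1.94% lower. Of 21 tested genes of gluconeogenic entry and flux, 14 were higher and 7 lower in Exe (median 0.04, from 0.007 without Con 2 to 0.07 without Con 6), where 57.5% of all genes were higher. Past that p were Got2, the mitochondrial aspartate aminotransferase, higher at 258 ± 23.8 FPKM against 232 ± 9.06 in Con, and Pgp, which removes glycerol phosphate, lower at 9.30 ± 0.65 against 10.3 ± 0.69. Of 10 genes of the reversible glycolytic steps, 9 were higher (median 0.04, from 0.02 without Con 5 to 0.10 without Exe 5), with 1 past that p, Pgk1 at 197 ± 10.4 FPKM against 175 ± 12.7. Of 10 genes of the glycolytic direction, 8 were lower (median -0.08, from -0.13 without Exe 5 to -0.04 without Exe 2). Pfkm, at 6.09 ± 0.36 FPKM against 6.77 ± 0.44 in Con, was among those past that p. Of 10 genes of fructose entry and sugar transport, 5 were higher and 5 lower, and 0 were past it.

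Genes that respond to fasting and glucagon were mostly lower in Exe. Of 15 tested, 13 were lower (median -0.23), where 42.5% of all genes were, and 3 were past an unadjusted p of 0.05, where 1.94% of all genes were lower at that p. They were Dusp1, a stress responsive phosphatase (8.84 ± 4.87 FPKM against 16.8 ± 5.35, log2 difference -0.93), Trib1, a pseudokinase (8.91 ± 1.27 against 10.8 ± 1.34), and Tat (466.3 ± 159 against 678 ± 201). Their limma adjusted p was 0.793 each. The median of the list was nearest to 0, at -0.10, without Exe 5. Of 22 regulators on the same side, 11 were higher and 11 lower. Past that p were Klf15, a fasting-induced factor (85.3 FPKM on average in Con and 66.3 in Exe, log2 difference -0.36), and Nr4a1, an immediate early factor (0.848 ± 0.220 against 2.50 ± 1.61). Foxo1 was at 4.57 ± 0.69 and 4.62 ± 0.72 FPKM in Con and Exe (adjusted p = 0.993), and Ppargc1a, at 0.805 ± 0.165 and 0.850 ± 0.070, did not pass the filter. Igfbp1, a secreted binding protein induced in fasting, was at 23.1 ± 7.05 and 21.1 ± 11.8 FPKM (adjusted p = 0.953). Pdk4, a kinase that blocks pyruvate oxidation, was at 0.950 ± 0.600 and 1.08 ± 0.796 and did not pass the filter.

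Genes that respond to carbohydrate feeding through ChREBP were mostly higher. Of 15 tested, 11 were higher in Exe (median 0.22), and 5 of these were at an unadjusted limma p under 0.05, where 57.5% of all genes were higher and 4.27% higher at that p. The 5 were the lipogenic enzymes Acacb (12.2 ± 3.77 against 7.67 ± 1.07 FPKM), Acly, Elovl6 (15.1 ± 6.96 against 10.01 ± 1.39) and Acaca (11.4 ± 2.70 against 8.87 ± 1.77) and the regulator of acetyl-CoA carboxylase Mid1ip1 (47.4 ± 17.0 against 34.2 ± 3.63). Acly, which makes cytosolic acetyl-CoA, ran from 48.4 to 59.7 FPKM in Con and from 59.8 to 119 in Exe, so the groups were just separated. The list median dropped to 0.10 without Exe 2, the mouse with the highest Pklr, Khk and Acly. Of 15 regulators on the carbohydrate and insulin side, 10 were higher and 0 were past that p, with Mlxipl, which encodes ChREBP, at 92.5 ± 13.2 and 110 ± 32.8 FPKM (limma adjusted p = 0.929). Srebf1, a lipogenic factor, was at 53.3 ± 13.4 and 62.9 ± 24.0 FPKM (adjusted p = 0.937) and Txnip, a glucose responsive gene, at 35.2 ± 17.3 and 26.9 ± 10.6 (adjusted p = 0.937). Some genes stand in more than 1 list.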

How the data were processed

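Liver RNA of 12 mice (6 Con, 6 Exe) was sequenced, with 1 library per mouse. The authors trimmed the reads, aligned them to GRCm39 with HISAT and deposited FPKM per gene. The submitters' notes also name Bowtie2 and mm10, and versions are not given in the sources used here. No counts were used, so depth is unknown apart from the relative depth read off the spacing of low FPKM values, and no counting interval is given. The members and gene lists were chosen with earlier results of these data known. FPKM was taken as log2(FPKM + 1), filtered at 1 FPKM in at least 6 mice, and fitted with limma 3.58.1 (trend) in R 4.3.3, adjusted by Benjamini-Hochberg over all genes tested. Single genes were also compared by a two-sided exact permutation test over 924 splits, and correlations by 100000 permutations (exact within groups), with Python 3.11.15, numpy 2.4.6, pandas 2.3.3 and scipy 1.17.1. The fit was tested on simulated data. Genes named outside the 9 were those of the fixed lists past an unadjusted p of 0.05 (at most 5 a list), companion genes and the related genes set by role, and for each member the 3 genes with the highest r after centring; where values were given for others they were chosen after being seen. Some genes that this rule names are not reported here. Promoters were RefSeq windows on GRCm38.p6, matched by gene ID, and no coordinate was converted between builds. RefSeq held 16710 of the 16821 gene IDs. Alternatives were another scaling, filter, pseudocount, moderation, the replicate number as a block, an acute phase covariate and leaving out each mouse.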

Additional observations from a re-analysis of the deposited data

Results flagged for a closer look

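In 12 sets of 6 mice, a single mouse lay far from the other 5 by Dixon's test at the 95% level, which chance passes in about 5% of sets. These were 4 of 18 sets for the 9 genes and 8 of 46 sets for summed marker and pathway lists. For the 9 genes the test was run on log-transformed FPKM, as in the fits, and for the lists on summed FPKM without a log. Values are given here as FPKM for both, and a flag on either scale need not hold on the other. Among the genes, Pklr was 231.2 FPKM in Exe 2 with the other Exe mice between 77.9 and 115. Slc2a2 was 68.9 FPKM in Con 2, where the other Con mice lay between 88.5 and 101. Slc37a4 was 68.4 FPKM in Con 4 against 95.8 to 114. G6pc was 16.2 FPKM in Exe 5 against 111 to 275. The genes of gluconeogenic entry and flux summed to 2919 FPKM in Exe 2, where the other Exe mice lay between 2590 and 2706.

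Exe 5 also held the highest summed acute phase genes, 44460 FPKM against 9587 to 17000 in the other Exe mice, and the highest summed pancreatic acinar markers, 24.3 FPKM against 0.80 to 5.23. Con 6 stood out in 3 sets, with acinar markers at 2.93 FPKM against 0.60 to 1.21, periportal markers at 6544 against 5621 to 5960 and islet markers at 0.07 against 0. Islet markers were 0.17 FPKM in Exe 2 against 0 in the other Exe mice, and kidney markers were 0.05 in Exe 6 against 0.10 to 0.11. With the other 5 mice at 0, any value above 0 is flagged, so the islet flags in Con 6 and Exe 2 carry no weight. The kidney values are also close to 0. The part of these mice's other features in the values of the 9 genes was not tested.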

How the results depend on the processing

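Of 758 values under alternatives, 720 kept their direction, side of the threshold or size, 23 moved, 11 were weaker and 4 reversed. Without a filter, 1 gene passed an adjusted p of 0.05 in limma, against 0 as reported and under the other settings. Genes at an unadjusted p under 0.05 numbered 418 (without Exe 2) to 910 (without Exe 5) with a mouse left out. Without both Exe 2 and Exe 5, chosen after seeing the data, 286 were higher and 270 lower. The 9 genes held 2 at that p under quantile normalization, a common FPKM sum, no filter or the acute phase covariate, and 1 to 3 with a mouse left out. Reversed were Fbp1 (0.00372, common sum), Slc2a2 (-0.022 without Exe 2, up to 0.145 without Exe 5) and G6pc (-0.423 without Exe 2 to 0.377 without Exe 5, 0.233 without both and, not reversed, -0.534 with the acute phase covariate). Pairs past the adjusted threshold were 0 within Con, within Exe and without the 2 farthest mice, and 0 to 1 with a mouse left out, and the same held for the relation to acute phase genes. Those settings also use fewer mice. Otherwise the cause was not tested.

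Con and Exe share replicate numbers, but same-numbered mice did not deviate together (r from -0.478 to 0.165, 1 of 6 closest to its own number). No pairing by number was thus seen in these values, though such correlations cannot exclude a batch shared by number. With the replicate block, 392 genes were higher and 175 lower at an unadjusted p under 0.05, the lowest adjusted p was 0.278, and no call changed for the 9 genes. FPKM without counts limits what can be said of depth, and 6 mice a group leave intervals as wide as that of G6pc.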

Other observations

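Other cell types differed between mice. All 11 macrophage and Kupffer cell markers were lower in Exe on average (median log2 difference -0.23), where 57.5% of all genes were higher. Of these markers 0 were past an unadjusted p of 0.05 in limma, where 1.94% of all genes were lower at that p. The macrophage and Kupffer cell markers summed to 313 to 573 FPKM in Con and 227 to 520 in Exe. Red blood cell markers summed to 235 to 903 FPKM in Con and 400 to 1290 in Exe, with Exe 5 highest. Of the 5 tested, 4 were higher in Exe (median log2 difference 0.75), and 1 was higher at an unadjusted p under 0.05, where 4.27% of all genes were. It was Hbb-bs, a globin with closely similar copies, at 127 ± 74.8 FPKM in Con and 212 ± 98.4 in Exe (limma adjusted p = 0.799). The part of these cell types in the values of the 9 genes was not tested. Endothelial and stellate markers summed to 121 to 152 and 108 to 154 FPKM, lymphocyte and neutrophil markers to 13.6 to 34.5 and 12.9 to 55.7, and the clock genes to 162 to 289 and 164 to 268, and the summed levels overlapped between groups in each of these 5 lists.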
